A study of Mus musculus with 14 samples.

Results

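The transcripts described here were measured on an Illumina bead array by 115 probes that were low at day 14 after tumor inoculation, and lower there than at day 4 or in control tissue. They were chosen from the measured values. A probe had to be detected on all 3 control and all 6 day 4 arrays, its highest day 14 value had to lie below its lowest control and lowest day 4 value, and its day 14 mean had to lie at least 0.6 log2 units below both other means. Of the 45281 probes on the array, 5345 were detected on every control and day 4 array, 425 of those were also separated from both other groups, and 115 met the whole rule. The values that chose the probes are therefore given as a description, and only the comparison of day 4 with control was tested on them. The rule did not use that difference, but it used the values of both groups. A probe already lower at day 4 therefore met it less easily. The fall was not particular to day 14 for every member: limma also called Irx2 lower against control at day 4, and Trp63 and Krt23 lay below every control array at day 4 without passing the test.

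Total RNA came from tumor microenvironment tissue taken 14 days (n = 5) or 4 days (n = 6) after inoculation of AB1 cells, a mouse mesothelioma line, and from control tissue (n = 3). All 14 samples were from BALB/C mice aged 8 weeks. The labels do not give the site of the control tissue, nor whether tissue was pooled, and nothing in them says that replicates came from separate animals, so the p-values cover the spread of these samples alone, and that spread may be technical. The tissue was bulk, so fewer cells of a type and less RNA per cell cannot be told apart in any difference below. Mesothelial markers had no named tested probe, so the inoculated line could not be checked against them. Epidermal, fat and muscle markers were measured in every group. Summed epidermis and hair intensities were 11268 to 18813 at day 14, 28643 to 38262 at day 4 and 23234 to 35345 in control. Of the 17 probes summed, 6 were members. The rule fixed the low day 14 values of those members, and with them part of the low day 14 sums. Sums without the members are not given here.

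A platform annotation paired 101 of the 115 probes with a gene: 100 with 1 gene each, which came to 89 genes, and 1 with several, which is left unnamed, while 14 had no entry. Many of the genes are known from skin and fat. The epidermis renews itself from a basal layer of keratinocytes, which hold on to the basement membrane through collagen XVII and plectin-family linkers and carry keratin 14 or keratin 15. As these cells move outward they switch to keratin 10, fill with cross-linked envelope proteins and lipids, and become the cornified layer that keeps water in. Fat cells lie below, in the dermis and the subcutaneous layer, and store triglyceride that lipases such as monoglyceride lipase release. Transcription factors of the p63, AP-2, Klf and GATA families are known for directing the keratinocyte programme.

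The named members were sorted by hand into 7 groups by known role after their names and values had been seen, so the groups carry no test. The cornified layer and late differentiation held 21 probes of 18 genes. The basal layer, adhesion and polarity held 12 probes of 11 genes. Transcription factors took 18 probes of 15 genes, lipid metabolism and fat cells 16 probes of 15 genes, detoxification and redox 6 probes of 6 genes, signalling and matrix 11 probes of 10 genes, and the major urinary proteins 3 probes of 2 genes. A further 13 probes of 12 genes had other roles.

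Promoter sequence is shown for 4 genes of the cornified group, those with the largest fall among the ones whose start region holds either of 2 short motifs. Calm4, Casp14 and Acer1 of that group fell further, and their start regions hold neither. Whether the marked letters act in these samples was not tested. RefSeq promoter windows of GRCm38.p6 ran from 250 bases before to 50 after a gene's start. They were matched by gene ID for 63 of the 89 genes and gave 79 promoters. Capitals mark TATAAA, the core of the TATA box, and TGACTCA, the letters that AP-1 factors bind, each as found on either strand. The windows are chr10:93488518-93488817 (plus strand) for Hal, chr11:99389315-99389614 (minus strand) for Krt10, chr7:30763506-30763805 (plus strand) for Dmkn and chr7:30787655-30787954 (plus strand) for Krtdap.
Hal: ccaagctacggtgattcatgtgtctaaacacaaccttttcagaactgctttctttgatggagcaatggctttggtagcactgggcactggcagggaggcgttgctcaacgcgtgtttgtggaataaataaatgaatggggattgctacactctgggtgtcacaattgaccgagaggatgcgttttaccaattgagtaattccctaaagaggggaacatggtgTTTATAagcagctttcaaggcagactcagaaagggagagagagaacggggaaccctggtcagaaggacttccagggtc
Krt10: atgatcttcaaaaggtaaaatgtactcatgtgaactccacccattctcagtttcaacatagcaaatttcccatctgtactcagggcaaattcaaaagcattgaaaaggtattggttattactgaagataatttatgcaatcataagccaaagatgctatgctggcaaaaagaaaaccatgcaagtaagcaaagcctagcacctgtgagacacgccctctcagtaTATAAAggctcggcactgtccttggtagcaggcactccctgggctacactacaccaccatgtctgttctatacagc
Dmkn: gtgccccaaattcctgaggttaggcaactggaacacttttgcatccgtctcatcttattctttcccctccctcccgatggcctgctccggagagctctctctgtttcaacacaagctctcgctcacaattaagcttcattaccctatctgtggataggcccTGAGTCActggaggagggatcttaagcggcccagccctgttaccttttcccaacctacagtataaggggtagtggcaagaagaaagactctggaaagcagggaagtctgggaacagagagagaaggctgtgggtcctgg
Krtdap: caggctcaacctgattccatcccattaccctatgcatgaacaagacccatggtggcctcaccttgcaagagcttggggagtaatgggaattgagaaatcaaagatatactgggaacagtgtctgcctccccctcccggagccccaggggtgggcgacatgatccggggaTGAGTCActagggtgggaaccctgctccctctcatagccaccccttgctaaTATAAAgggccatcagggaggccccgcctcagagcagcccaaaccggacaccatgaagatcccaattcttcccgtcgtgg

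The marked TATA letters begin 28 bases before the start of Hal, where they read on the opposite strand, 26 before that of Krt10 and 30 before that of Krtdap. The TGACTCA letters begin 89 bases before the start of Dmkn and 81 before that of Krtdap, in both on the opposite strand. Dmkn and Krtdap are neighbours on chromosome 7 with no protein-coding gene between them, as are the envelope genes Lce1c and Lce1d on chromosome 3. Keratins Krt10 and Krt23 lie on chromosome 11 with 2 protein-coding genes between them.

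In all, 7 motifs were searched on both strands, and the pair that is marked and the genes that are printed were chosen after the shares of all 7 had been seen. TATAAA was in 16.5% of the member promoters, against 7.81% of 5159 promoters of other named genes and 13.6% of all 32851 promoters of that length, and 13 member genes held it. Of 15 cornified genes with a matched promoter, 5 held it. TGACTCA was in 8.86% of the member promoters, against 3.86% of the other named and 5.2% of all, and 4 member genes held it. These are descriptions, and several windows belong to 1 gene. The AP-2 letters GCCNNNGGC were in 19% of member promoters, against 25.2% of the other named and 16.6% of all. The GC box GGGCGG, which can overlap the AP-2 letters, was in 39.2% of member promoters, against 63.6% of the other named and 35.7% of all. CCAAT was in 38% of member promoters, against 37.6% and 37.4%, and the E-box CACGTG in 12.7%, against 10.1% and 7.15%. The palindromic NFI motif was in 0% of member promoters, against 0.0388% and 0.0365%. Median GC content was 55.7% in member promoters, 60.7% in the other named and 52.7% in all.

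All values below are log2 intensities after background correction and quantile normalization, unless another scale is named. A difference of 1 is a doubling of intensity, and levels are not compared between probes. The median over the 115 probes was 6.68 ± 0.31 on day 14 arrays, against 8.34 ± 0.11 on day 4 arrays and 8.06 ± 0.18 on control arrays (mean ± SD of the array medians, n = 5, 6 and 3). On this scale, too, day 14 lay below every other array for all 115 probes, by a gap of 0.015 to 1.03 with a median of 0.34. Against control, 114 of the 115 passed limma at an adjusted p under 0.05 as lower, where 6.74% of all 14916 tested probes did. Against day 4 all 115 did, where 8.58% of tested probes did. The rule fixed these counts.

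The 10 named members with the largest fall below the nearer of the other groups are plotted by array. They hold lipid and fat-cell genes, urinary proteins, a basal keratin and a late keratinocyte gene. Mgll, the monoglyceride lipase that frees glycerol and fatty acid in fat cells, led them. Its probe ILMN_2700408 read 5.45, 6.99, 5.92, 6.27 and 5.37 at day 14, against 8.11 to 8.94 with a median of 8.40 at day 4 and 7.31, 8.81 and 8.50 in control. The day 14 and control arrays came closest at day 14 array 2 and control array 1, and the day 4 and control values overlapped. The control geometric mean was 4.62 times that of day 14. Such sizes depend on the background correction. On the rule's own scale, without it, this probe fell by 1.41 log2 units below the nearer group. Over all members the median difference from control was -0.82 without the correction and -1.37 with it.

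**Figure D1:**
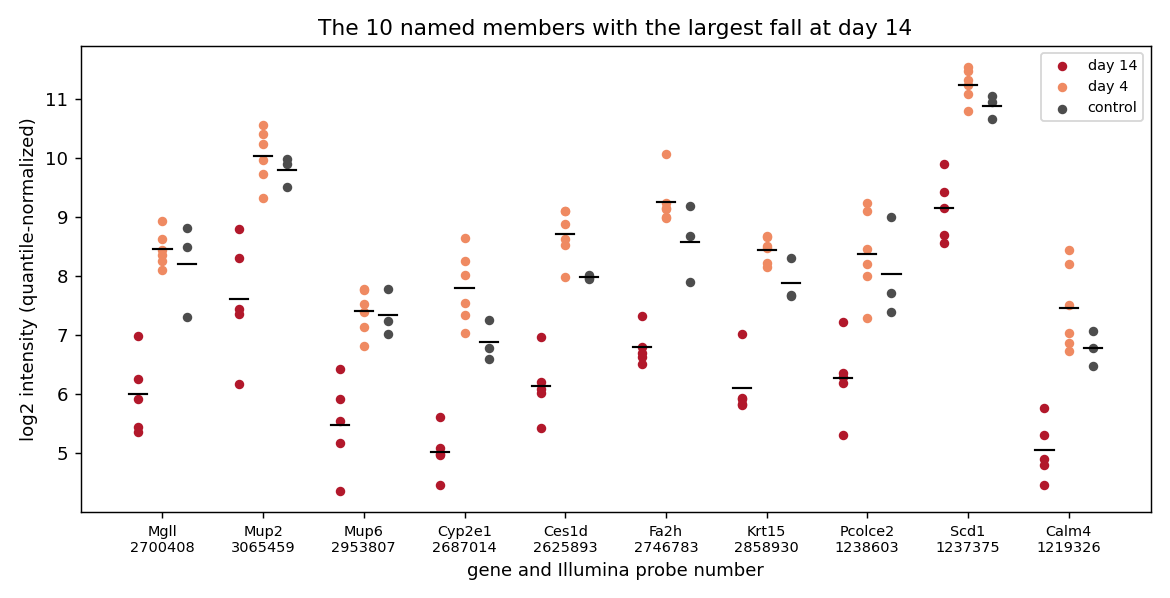
Log2 intensity (vertical axis) of the 10 named members with the largest fall, by gene and probe (horizontal axis). Each point is 1 array, day 14 left, day 4 middle, control right, and each bar is a group mean; day 14 points lie below all others of the same probe, and for Mgll they run from 5.37 to 6.99.

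Lipid and fat-cell genes made up 16 members. Their median was 6.83 ± 0.26 at day 14, against 8.86 ± 0.13 at day 4 and 8.40 ± 0.44 in control. The differences from control ran from -2.21 to -0.71 and those from day 4 from -2.56 to -0.83. The second probe of Mgll, ILMN_2857957, read 4.69, 5.50, 5.08, 5.44 and 4.65 at day 14, against 6.54 to 7.51 with a median of 7.03 at day 4 and 5.95, 6.89 and 6.77 in control, the same order of groups as the first probe.

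Scd1, which puts the double bond into stearic acid, read 8.69, 9.90, 9.15, 9.43 and 8.56 at day 14, against 10.79 to 11.54 with a median of 11.27 at day 4 and 10.66, 11.05 and 10.96 in control. Day 4 overlapped control, and day 14 array 2 came nearest to them. Ces1d, a carboxylesterase with triglyceride hydrolase activity, read 6.21, 6.97, 6.09, 6.02 and 5.43 at day 14, against 7.98 to 9.11 with a median of 8.75 at day 4 and 7.95, 8.02 and 7.98 in control. Its 3 control arrays had an SD of 0.034, and day 4 overlapped them at the low end. Fa2h, which makes the 2-hydroxylated fatty acids of skin ceramides, read 6.69, 7.33, 6.63, 6.80 and 6.52 at day 14, against 8.98 to 10.07 with a median of 9.14 at day 4 and 7.90, 9.19 and 8.68 in control. Day 4 array 3 was the highest, apart from the other 5, and control overlapped day 4.

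Genes that define fat cells were also low at day 14. Adipoq, which encodes the fat-cell hormone adiponectin, read 7.15, 7.06, 6.54, 6.09 and 6.18 at day 14, against 8.05 to 10.14 with a median of 8.69 at day 4 and 7.92, 7.93 and 7.73 in control. The 3 groups did not overlap. Lpl, the lipoprotein lipase, read 8.35, 9.60, 9.55, 9.13 and 8.18 at day 14, against 9.96 to 11.57 with a median of 10.85 at day 4 and 10.39, 10.53 and 10.36 in control. Plin4, a lipid droplet coat protein, read 6.36, 6.995, 6.88, 6.60 and 6.58 at day 14, against 7.88 to 9.36 with a median of 8.74 at day 4 and 7.33, 8.37 and 7.91 in control. For both, day 4 and control overlapped. Fatty acid synthesis enzymes Acly, Elovl6 and Hacd3, the triglyceride-linked Pnpla3 and the peroxisomal transporter Abcd3 were also in the group.

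The cornified layer supplied the largest group, with 21 probes. Its median was 7.18 ± 0.31 at day 14, against 8.89 ± 0.48 at day 4 and 8.63 ± 0.44 in control, and differences from control ran from -2.08 to -1.002. Krt10, the keratin of cells that have left the basal layer, read 11.57, 11.74, 10.96, 11.44 and 10.41 at day 14, against 12.84 to 13.65 with a median of 13.27 at day 4 and 11.84, 13.18 and 12.94 in control. Control array 1 lay 0.10 above the highest day 14 array. Casp14, the caspase that processes filaggrin in the outer layers, read 7.02, 7.73, 7.10, 7.12 and 6.95 at day 14, against 8.06 to 10.23 with a median of 8.44 at day 4 and 9.55, 8.80 and 9.43 in control. At day 4 Casp14 was above every control array on 2 arrays and below every control array on the other 4.

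Calm4, a calcium-binding protein of late keratinocytes, read 4.81, 5.77, 4.91, 5.31 and 4.46 at day 14, against 6.73 to 8.44 with a median of 7.28 at day 4 and 6.48, 6.78 and 7.07 in control. Day 4 overlapped control for Calm4. Hal turns histidine into urocanic acid in the cornified layer. Its probe ILMN_2984332 read 4.94, 6.13, 5.56, 5.03 and 4.46 at day 14, against 6.73 to 8.12 with a median of 7.47 at day 4 and 6.29, 6.502 and 7.28 in control. Its probe ILMN_1241298 read 6.01, 6.498, 5.64, 6.11 and 5.85 at day 14, against 7.59 to 8.77 with a median of 8.02 at day 4 and 6.98, 7.15 and 7.51 in control. On the second probe the 3 groups did not overlap, while on the first day 4 and control did.

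Krtdap and Dmkn are secreted keratinocyte proteins. Krtdap probe ILMN_2868152 read 8.02, 8.98, 7.77, 8.48 and 8.03 at day 14, against 9.97 to 10.86 with a median of 10.43 at day 4 and 9.001, 9.53 and 9.59 in control. Krtdap probe ILMN_2503521 read 5.60, 6.79, 5.75, 6.19 and 6.01 at day 14, against 7.40 to 8.70 with a median of 8.28 at day 4 and 6.89, 7.37 and 7.53 in control. Day 14 array 2 and control array 1 came closest together on both. Dmkn probe ILMN_1229763 read 8.55, 9.40, 8.60, 9.36 and 8.26 at day 14, against 10.88 to 11.42 with a median of 11.23 at day 4 and 9.54, 10.49 and 10.53 in control. Its probe ILMN_3105563 had means of 9.23 ± 0.46 at day 14, 11.34 ± 0.17 at day 4 and 10.46 ± 0.52 in control. On both Dmkn probes every day 4 array lay above every control array. The remaining members of the group included the envelope genes Lce1c, Lce1d, Kprp and Ppl, the corneodesmosome gene Cdsn and the ceramidase Acer1.

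The basal and adhesion group had a median of 6.03 ± 0.48 at day 14, against 8.00 ± 0.16 at day 4 and 7.66 ± 0.13 in control. Krt15, a keratin of basal cells and the hair follicle bulge, read 5.81, 7.03, 5.84, 5.94 and 5.92 at day 14, against 8.16 to 8.68 with a median of 8.49 at day 4 and 7.68, 8.31 and 7.66 in control. Day 14 array 2 stood apart from the other 4 day 14 arrays. Col17a1, the hemidesmosome collagen, read 6.60, 8.00, 7.11, 7.40 and 7.06 at day 14, against 8.67 to 9.48 with a median of 9.16 at day 4 and 8.18, 8.82 and 8.76 in control. Its partner Dst, whose epithelial form links keratin to the hemidesmosome, read 5.73, 6.26, 5.72, 5.66 and 4.94 at day 14, against 7.30 to 8.58 with a median of 8.02 at day 4 and 6.34, 7.41 and 7.44 in control. Control array 1 was the lowest control array for both.

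Esrp1, the epithelial splicing regulator, read 8.28, 9.07, 8.42, 8.41 and 8.62 at day 14, against 9.73 to 9.99 with a median of 9.88 at day 4 and 9.78, 10.15 and 10.11 in control. Its day 4 and control values overlapped within a narrow span. Trim29, a keratinocyte TRIM protein, had 2 member probes. Probe ILMN_3008888 read 5.10, 6.19, 5.84, 5.31 and 4.74 at day 14, against 6.20 to 7.51 with a median of 6.70 at day 4 and 7.03, 6.70 and 6.97 in control, the smallest gap of all members. Probe ILMN_1218207 averaged 7.14 ± 0.35 at day 14, 8.22 ± 0.21 at day 4 and 8.50 ± 0.10 in control.

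Transcription factors had a median of 6.57 ± 0.17 at day 14, against 7.88 ± 0.06 at day 4 and 7.89 ± 0.21 in control. Trp63, which encodes p63 and maintains the stratified epithelium, read 6.37, 7.76, 6.57, 6.77 and 7.01 at day 14, against 7.87 to 8.31 with a median of 8.21 at day 4 and 8.41, 8.92 and 8.45 in control. The groups did not overlap, with day 4 between the others. Klf4, which is needed for the skin barrier in the mouse, read 5.69, 6.49, 5.57, 5.71 and 4.73 at day 14, against 6.75 to 7.72 with a median of 7.10 at day 4 and 7.46, 7.03 and 7.05 in control. Gata3, which acts in hair follicle and barrier formation, read 6.42, 7.12, 6.51, 6.47 and 6.60 at day 14, against 7.50 to 8.56 with a median of 7.95 at day 4 and 8.37, 8.24 and 8.38 in control. For Klf4 and Gata3, day 4 overlapped control.

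Several factors were seen by 2 probes. Tfap2b, an AP-2 factor, averaged 4.97 ± 0.57 at day 14, 6.62 ± 0.30 at day 4 and 6.74 ± 0.26 in control on probe ILMN_3151298. On probe ILMN_1223731 it averaged 6.85 ± 0.25 at day 14, 8.42 ± 0.25 at day 4 and 7.87 ± 0.61 in control. The means of day 4 and control stood in opposite order on those probes. Bcl11b, a zinc-finger factor of T cells and keratinocytes, averaged 5.37 ± 0.46 at day 14, 7.20 ± 0.23 at day 4 and 6.87 ± 0.26 in control on probe ILMN_2436183. Probe ILMN_2611022 gave Bcl11b means of 5.70 ± 0.44 at day 14, 7.53 ± 0.44 at day 4 and 6.92 ± 0.41 in control. Both Bcl11b probes had day 4 highest. Nfib, a nuclear factor I gene, averaged 6.67 ± 0.46 at day 14, 7.86 ± 0.26 at day 4 and 7.92 ± 0.29 in control on probe ILMN_2646631. Its probe ILMN_2726585 averaged 7.25 ± 0.36 at day 14, 8.62 ± 0.37 at day 4 and 8.12 ± 0.17 in control. For Nfib, too, the order of day 4 and control differed between probes, while day 14 was lowest on all 6.

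Members tied to the daily clock and to immediate responses were Per2, a repressor of the clock, Dbp, a clock output factor, and Egr3. Dbp read 6.95, 7.67, 6.88, 7.48 and 7.03 at day 14, against 8.56 to 9.22 with a median of 8.95 at day 4 and 7.72, 8.47 and 8.69 in control. Control array 1 was the lowest of the Dbp controls, and day 4 overlapped control. Per2 read 5.81, 5.93, 6.18, 5.81 and 5.18 at day 14, against 6.86 to 7.79 with a median of 7.43 at day 4 and 7.04, 6.84 and 7.01 in control. The time of day of sampling is not in the labels. Egr3 read 7.01, 8.03, 7.81, 8.14 and 8.49 at day 14, against 8.56 to 9.43 with a median of 9.10 at day 4 and 9.10, 9.20 and 9.23 in control. For Egr3 the lowest day 4 array came within 0.07 of the highest day 14 array.

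Among detoxification genes, Cyp2e1, a cytochrome P450 that oxidizes ethanol and other small molecules, read 4.99, 5.61, 5.10, 4.97 and 4.46 at day 14, against 7.04 to 8.64 with a median of 7.78 at day 4 and 7.27, 6.78 and 6.59 in control. Only 1 control array reached into the Cyp2e1 range at day 4. Aldh3a1, an aldehyde dehydrogenase, read 6.98, 7.42, 6.56, 7.06 and 6.07 at day 14, against 8.77 to 9.65 with a median of 9.32 at day 4 and 7.99, 8.47 and 8.34 in control. The day 14, day 4 and control arrays of Aldh3a1 did not overlap. The group's median was 6.10 ± 0.29 at day 14, against 7.82 ± 0.31 at day 4 and 7.39 ± 0.33 in control.

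In the signalling and matrix group the median was 6.41 ± 0.48 at day 14, against 8.21 ± 0.47 at day 4 and 7.85 ± 0.37 in control. Pcolce2, an enhancer of procollagen processing, read 6.36, 7.23, 6.19, 6.298 and 5.31 at day 14, against 7.30 to 9.24 with a median of 8.34 at day 4 and 7.39, 7.71 and 9.01 in control. Day 4 and control overlapped over most of that span. Igfbp5, which binds insulin-like growth factors, read 8.61, 9.24, 8.77, 8.54 and 7.62 at day 14, against 9.97 to 11.23 with a median of 10.98 at day 4 and 9.496, 9.84 and 9.89 in control. The Igfbp5 groups did not overlap. Timp3, a matrix-bound metalloproteinase inhibitor, read 7.45, 7.83, 7.52, 7.51 and 6.33 at day 14, against 7.96 to 9.06 with a median of 8.88 at day 4 and 8.64, 8.72 and 8.76 in control. Day 14 array 5 was the lowest by over 1 log2 unit, and control lay inside the day 4 range. Fgfr2, whose epithelial form receives signals from the dermis, read 7.14, 7.53, 7.28, 7.49 and 7.31 at day 14, against 8.42 to 8.97 with a median of 8.52 at day 4 and 8.13, 8.38 and 8.48 in control. The day 14 arrays of Fgfr2 lay close together. Guidance and teneurin genes Robo1, Tenm2 and Tenm4 were also members, Tenm4 with 2 probes.

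The urinary proteins carry pheromones in mouse urine and belong to a family of near-identical copies, so which copy a probe reads is uncertain. Mup2 probe ILMN_3065459 read 8.79, 8.31, 7.37, 7.45 and 6.18 at day 14, against 9.32 to 10.55 with a median of 10.10 at day 4 and 9.51, 9.89 and 9.98 in control. Mup2 probe ILMN_2730208 averaged 8.69 ± 0.69 at day 14, 10.68 ± 0.37 at day 4 and 10.21 ± 0.59 in control. Mup6 read 5.55, 6.43, 5.17, 5.92 and 4.36 at day 14, against 6.82 to 7.78 with a median of 7.47 at day 4 and 7.03, 7.78 and 7.24 in control. Day 4 and control overlapped on all 3 probes. Day 14 arrays spread most here among the role groups, with an SD of 1.004 in the group's median.

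**Figure D2:**
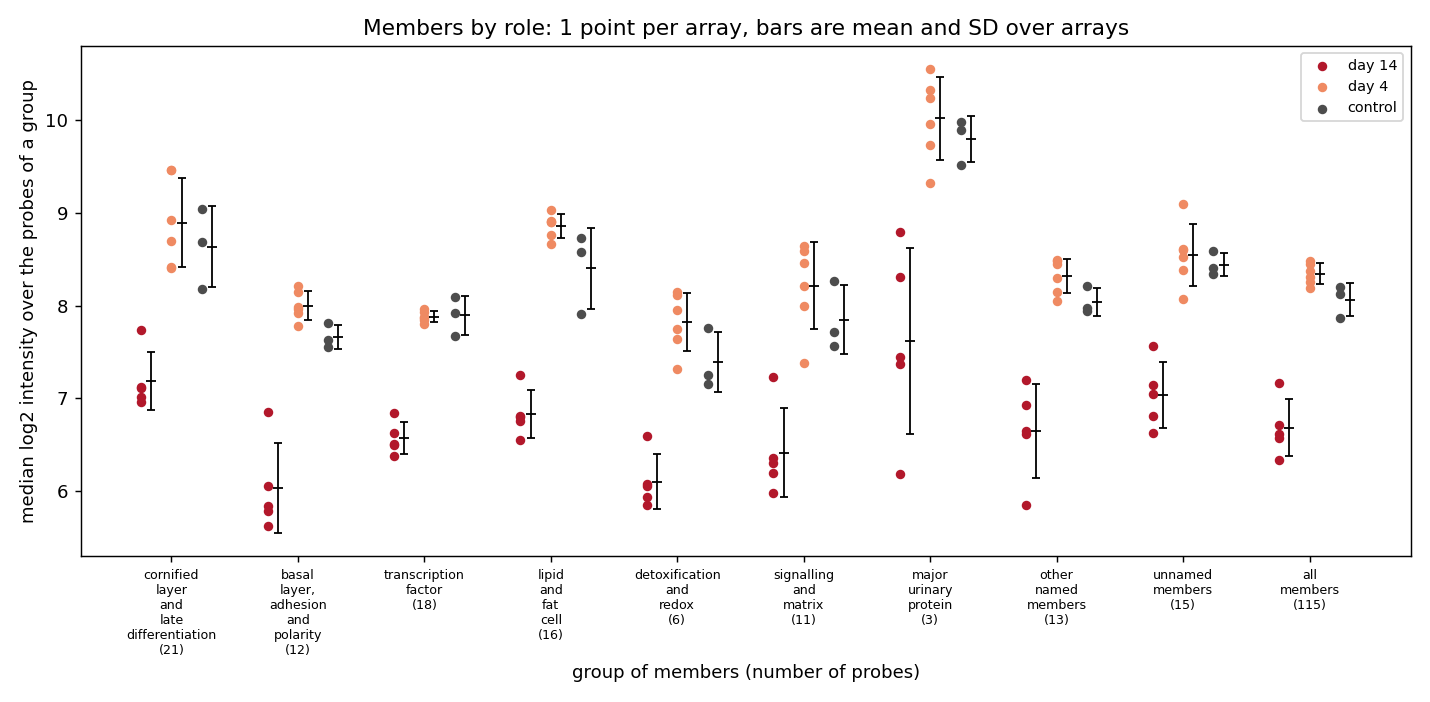
Median log2 intensity over the probes of each role group (vertical axis) by group (horizontal axis, with its number of probes). Each point is 1 array and each bar is the mean and SD over arrays, day 14 left, day 4 middle, control right; day 14 lies lowest in every group, at a mean of 6.68 over all 115 members against 8.34 at day 4 and 8.06 in control.

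Other named members had a median of 6.64 ± 0.51 at day 14, against 8.32 ± 0.19 at day 4 and 8.04 ± 0.15 in control. Among them, the cell cycle gene Ccnd2, a D-type cyclin, averaged 6.49 ± 0.65 at day 14, 7.85 ± 0.57 at day 4 and 7.98 ± 0.10 in control on probe ILMN_2700166. Its probe ILMN_2700168 averaged 5.53 ± 0.69 at day 14, 6.86 ± 0.51 at day 4 and 6.99 ± 0.19 in control. Defb6, a beta-defensin, read 7.20, 7.39, 6.64, 7.16 and 5.12 at day 14, against 8.15 to 8.76 with a median of 8.59 at day 4 and 8.19, 8.82 and 7.94 in control. Day 14 array 5 was far below the other 4 for Defb6, and day 4 overlapped control. The 15 probes left unnamed, 14 without an entry and 1 with several genes, had a median of 7.04 ± 0.35 at day 14, against 8.55 ± 0.33 at day 4 and 8.44 ± 0.13 in control.

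At the edge of the rule, on the rule's own scale without background correction, the smallest falls inside it were 0.6003 for Ptn, 0.6012 for Akr1c18 and 0.6106 for Abcd3. Just outside were Faah at 0.5979, Pnpla2 at 0.5973 and an unnamed probe at 0.5963. Faah degrades fatty acid amides and Pnpla2 is the adipose triglyceride lipase.

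Day 4 was then tested against control, to ask whether these transcripts had already moved at the earlier time. The rule used both groups' values, though not their difference, and a probe that had fallen by day 4 met it less easily. The counts by direction cannot be told apart from that choice of probes. Envelope and secreted keratinocyte genes were among those higher at day 4, together with the transcription factor Klf5 and detoxification and signalling genes. The transcription factor Irx2 was lower, and the remaining members did not pass the test. By limma at an adjusted p under 0.05, 10 of the 115 members were called higher and 1 lower, 11 in all (9.57%, where 4.75% of tested probes were called in either direction). That is 8.7% of members called higher, where 1.84% of all tested probes and 4.55% of the 5345 probes detected on every control and day 4 array were. Called lower were 0.87% of members, where 2.92% of tested probes and 2.77% of those 5345 were. At an unadjusted limma p under 0.05, 34 members were higher and 1 lower, where 1092 and 1279 of the 14916 tested probes were. The median difference was 0.26, with a range of -0.80 to 1.55, and 86 of 115 members lay above control, while the median over all tested probes was 0.02.

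The largest increase was in Lce1c, a late cornified envelope gene. It read 9.61 to 10.98 with a median of 10.32 at day 4, against 8.17, 8.68 and 9.35 in control, a difference of 1.55 ± 0.30 (SE; limma adjusted p = 0.00452), with all 6 day 4 arrays above every control array. Its neighbour Lce1d read 8.34 to 9.47 with a median of 8.84 at day 4, against 7.12, 7.56 and 8.24 in control, a difference of 1.25 ± 0.26 (limma adjusted p = 0.00886). Igfbp5 differed by 1.08 ± 0.30 (limma adjusted p = 0.0465). Krtdap probe ILMN_2868152 differed by 1.03 ± 0.24 (limma adjusted p = 0.0169). These 4 probes had no overlap between day 4 and control.

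Aldh3a1 was higher at day 4 by 1.02 ± 0.24 (limma adjusted p = 0.021). Both Dmkn probes were higher, by 1.00 and 0.88 (limma adjusted p = 0.0335 and 0.041). Kprp, a proline-rich protein of the cornified layer, differed by 0.88 ± 0.24 (limma adjusted p = 0.0462), and 1 control array reached into its day 4 range of 10.48 to 11.19. Klf5, a factor of dividing epithelial cells, read 10.10 to 10.49 with a median of 10.29 at day 4, against 9.35, 9.36 and 9.90 in control, a difference of 0.76 ± 0.16 (limma adjusted p = 0.00782). Prxl2a, a redox protein named here after its values were seen, made the tenth at 1.01. Of the 10, 6 probes were in the cornified group, 2 in detoxification and 1 each in transcription factors and signalling. The one called lower was Irx2, an Iroquois homeobox gene, at 7.26 to 7.96 with a median of 7.57 at day 4, against 8.49, 8.24 and 8.42 in control, a difference of -0.80 ± 0.18 (limma adjusted p = 0.0169). Its day 14 values of 6.09, 6.84, 6.46, 6.499 and 6.74 lay below the day 4 values.

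Control array 1, as numbered in the intensity file, was the lowest control array for 68 of the 115 members, and these calls did not hold without it. Leaving it out also cut the calls over all tested probes, from 709 (4.75%) to 271 (1.85%). Without it limma called 0 members in either direction at an adjusted p under 0.05, with 17 higher and 1 lower at an unadjusted p under 0.05, and Lce1c differed by 1.26 (limma adjusted p = 0.0673). Leaving out day 4 array 1 or day 4 array 4 left 7 members called each. With each array scaled to its median in place of quantile normalization, 0 members were called, where 187 (1.25%) of all tested probes were. At an unadjusted limma p under 0.05, 1 member was higher and 1 lower, and the median difference of the members was -0.07. With arrays scaled to the 75th percentile of probes detected everywhere, a setting added after seeing the data, 1 member was called, where 1.72% of all tested probes were.

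**Figure D3:**
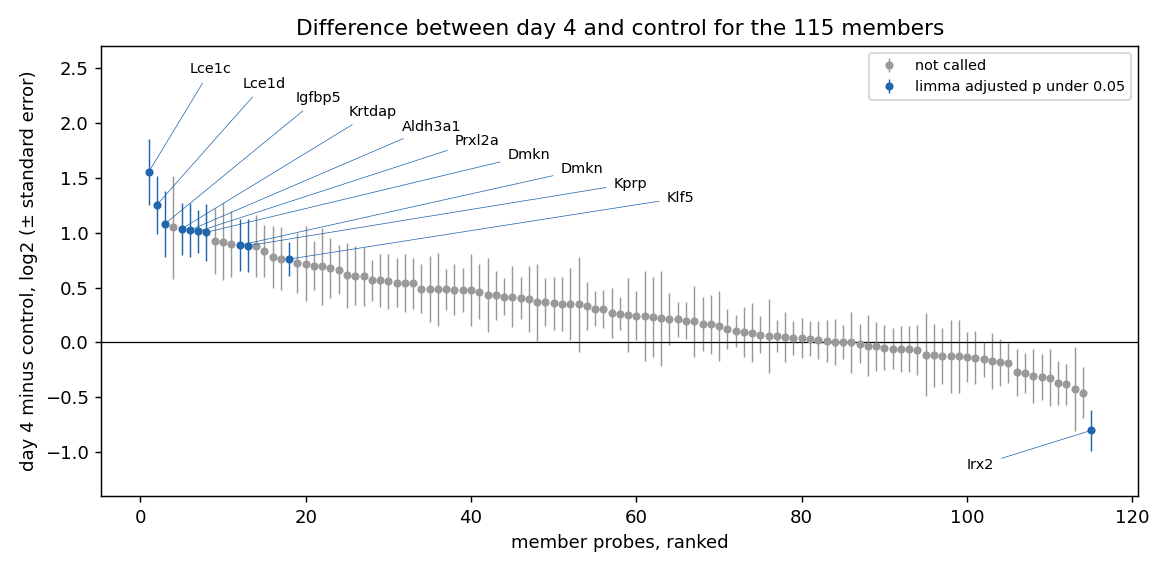
Day 4 minus control, in log2 units with its standard error (vertical axis), for the 115 member probes ranked by that difference (horizontal axis). Blue points with gene names are the 11 called at a limma adjusted p under 0.05 and grey points are not called; Lce1c is highest at 1.55 and Irx2 lowest at -0.80. Under median scaling 0 are called, where 1.25% of all tested probes are, and the median difference of the members turns to -0.07.

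All 6 day 4 arrays lay above all 3 control arrays for 16 of 115 members (13.9%), where this held for 4.08% of tested probes. They lay below for 3 members (2.61%), where this held for 5.51%. Tested probes include those not detected on every control and day 4 array, and the shares over the 5345 that were are not given here. A probe lower at day 4 met the rule less easily, so these counts, too, cannot be told apart from that choice of probes.

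Other probes of the same genes were not members. There were 17 such tested probes of 12 genes; where they lie in the transcripts is not known here. At day 14 limma called 11 lower against control and 14 lower against day 4, and 0 higher in either. Of the 17, 2 were called at day 4 against control. Both of the last were Igfbp5 probes, with differences of 1.26 and 2.17. The Igfbp5 probe ILMN_2682613 was 10.91 ± 0.61 at day 14, 12.48 ± 0.47 at day 4 and 10.31 ± 1.25 in control, so its day 14 mean was above control, by 0.60, without passing the test. Per2 probe ILMN_2987863 differed from control by -1.12 at day 14 and Ppl probe ILMN_2503188 by -1.91. These probes share the samples that chose the members.

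The pathway around the members was read from lists of genes written from textbook knowledge. The epidermis and hair list had 17 tested probes of 12 of its 22 genes, 6 of them members. Of its other 11 probes, limma called 9 lower against control at day 14, 9 lower against day 4, and 0 higher in either. Lor, the envelope protein loricrin, averaged 11.40 at day 14, 13.17 at day 4 and 12.64 in control. Krt14, the basal keratin, averaged 11.71 at day 14, 12.46 at day 4 and 12.40 in control. Krt17, a keratin of hair follicles and of injured skin, had another order, at 11.92 at day 14, 11.69 at day 4 and 12.85 in control, already called lower at day 4 by -1.16. Under median scaling limma called 0 of the 17 probes lower against control and 5 lower against day 4, while their median difference from control was -1.19. These values include the 6 members, whose low day 14 values the rule fixed.

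In the adipocyte list 8 probes of 8 of its 23 genes were tested, 4 of them members. All 4 others, Car3, Dgat2, Lep and Pnpla2, were called lower by limma between day 14 and day 4, and 2 of them, Dgat2 and Pnpla2, also against control. Under median scaling 3 of the 8, members included, were called against day 4 and 0 against control. Over all 8 probes the list's array medians ran from 6.51 to 7.27 at day 14, from 8.05 to 9.86 at day 4 and from 7.62 to 8.15 in control. With 4 members among the 8, the rule fixed part of the low day 14 medians. Of the circadian list's 6 probes, from 5 of its 17 genes, 2 were members, and of the other 4 the second Per2 probe and Tef were called lower at day 14 in both comparisons, while Clock and Bhlhe40 were not called. Under median scaling 0 of these 6 were called in either comparison. The remaining lists with members were mixed, by limma calls on their other probes at day 14. Of 15 detoxification probes, 2 were higher and 4 lower than control, and 7 lower than day 4. Of 9 immediate early probes, 1 was lower than control and 2 lower than day 4. Of 9 matrix protease and inhibitor probes, 1 was higher than control, 2 higher and 1 lower than day 4. Of 3 simple epithelium probes, 3 were lower than control, 1 lower than day 4, and 1 already lower at day 4 than control.

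Leukocyte, macrophage and interferon response markers were higher on the same day 14 arrays. Of the 6 tested probes of the pan leukocyte list, 5 were called higher by limma at day 14 against control (where 5.37% of all tested probes were) and 5 against day 4 (where 8.51% were). Their summed intensity ran from 1188 to 1999 at day 14, from 567 to 881 at day 4 and from 367 to 543 in control. Of 14 macrophage and monocyte probes, 9 were called higher against control, 7 higher and 1 lower against day 4, with sums of 3990 to 7584 at day 14, 2028 to 3538 at day 4 and 1628 to 1853 in control. Of 12 interferon response probes, 9 were called higher in both comparisons. Those lists have 10, 23 and 24 genes, of which 6, 11 and 10 had a named tested probe. Skeletal muscle had 11 of 25 probes called higher at day 4 against control and 13 lower between day 14 and day 4, with sums of 4323 to 31757 at day 14, 16483 to 35795 at day 4 and 5578 to 13375 in control. Under median scaling those muscle counts were 0 and 0, the leukocyte counts 2 and 2 of 6, the macrophage counts 3 and 6 of 14, and the interferon counts 7 and 7 of 12. The part of these other cells in the members' values was not tested.

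**Figure D4:**
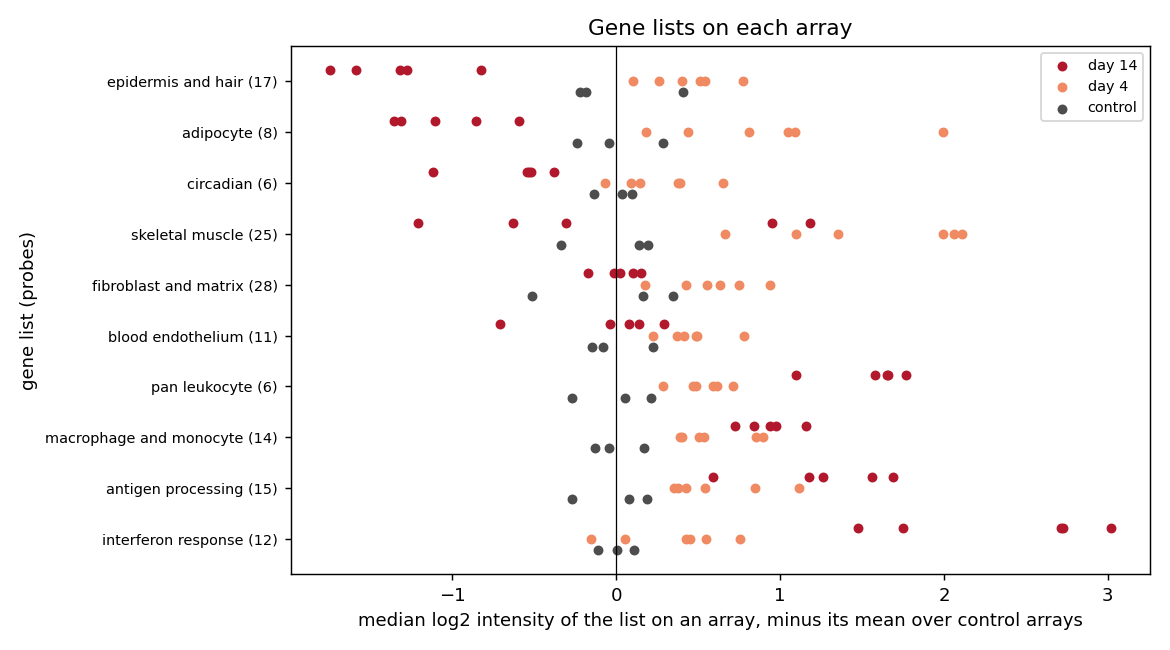
Median log2 intensity of each gene list on an array, minus the list's mean over control arrays (horizontal axis), for 10 lists (vertical axis, with their probes). Each point is 1 array, day 14 above day 4 above control. Epidermis and hair, adipocyte and circadian lists lie below 0 at day 14 and the leukocyte, macrophage and interferon lists above it. Leukocyte array medians are 6.302 to 6.97 at day 14, 5.49 to 5.91 at day 4 and 4.93 to 5.42 in control. Members make up 6 of the 17 epidermis and hair, 4 of the 8 adipocyte and 2 of the 6 circadian probes. The rule therefore fixed part of those lists' low day 14 values, while the leukocyte, macrophage and interferon lists hold no members.

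Arrays differed in how much they detected. Day 14 arrays detected 7059 to 13867 probes, day 4 arrays 8257 to 12370 and control arrays 10659 to 11772. Day 14 array 5, which detected the fewest, was the lowest day 14 array for 68 of the 115 members and detected 95 of them, while the other 4 detected all 115. Day 14 array 2, which detected the most, was the highest for 90. Without day 14 array 5 and day 4 array 2, a setting added after seeing the data, 114 members were called lower than control and 115 lower than day 4, and 121 probes met the rule, 111 of them members.

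The calls depended on how arrays were scaled. As a description, on each array the median of the members was set against the median of the 4256 probes detected on all 14 arrays. The difference, members minus those probes, was -0.20 to 0.64 at day 14, against 1.65 to 1.96 at day 4 and 1.39 to 1.70 in control. A factor applied to a whole array cancels in this difference by construction, and the rule fixed the low day 14 values, so neither its size nor its likeness under other scalings supports the calls. With median scaling it was -0.16 to 0.69 at day 14, 1.63 to 2.03 at day 4 and 1.39 to 1.73 in control. Under median scaling the members' own medians spread over 5.44 to 8.06 at day 14, 7.12 to 9.09 at day 4 and 7.78 to 8.50 in control, so that the arrays overlapped. Limma then called 1 member lower than control, where the median difference was -1.35, and 28 lower than day 4, where it was -1.28. Of all tested probes it called 203 (1.36%) between day 14 and control, 46 of them lower. Between day 14 and day 4 it called 665 (4.46%), 103 of them lower. Under that scaling the median over all tested probes between day 14 and day 4 was 0.11. With the 75th percentile it was -0.14, and 0.18 between day 4 and control, where the members' median difference was 0.16.

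**Figure D5:**
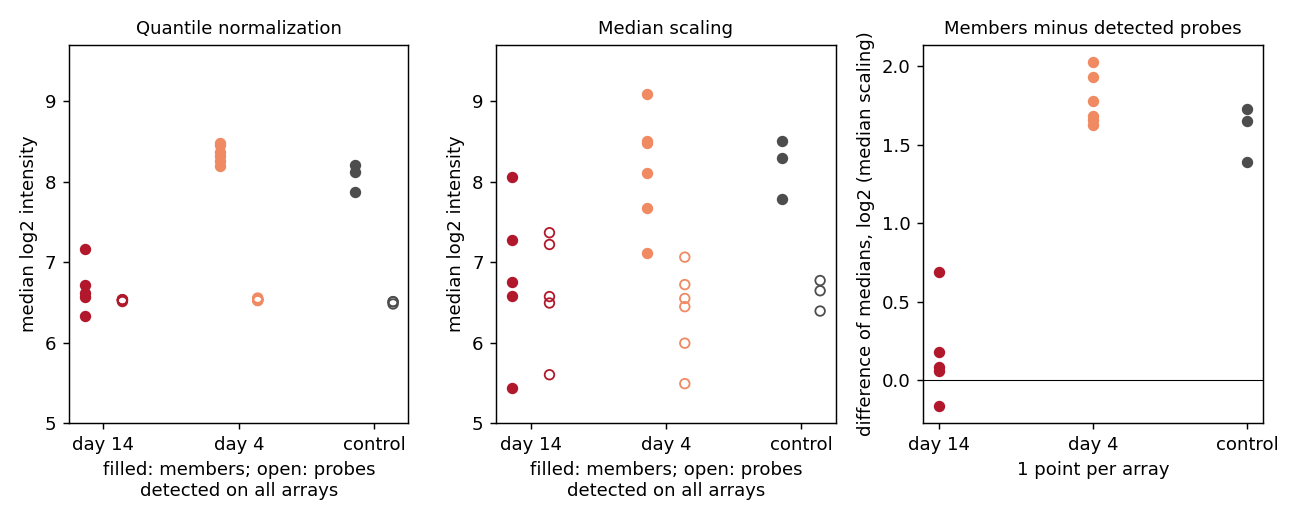
Array medians in log2 units under quantile normalization (left) and median scaling (middle), for the 115 members (filled) and the 4256 probes detected on all arrays (open), and the difference between the 2 medians on each array under median scaling (right). Groups run day 14, day 4, control; the difference is -0.16 to 0.69 at day 14, 1.63 to 2.03 at day 4 and 1.39 to 1.73 in control, a difference that scaling a whole array cannot change and whose low day 14 values the rule fixed.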

How the data were processed

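Total RNA, labelled with biotin through the Ambion MessageAmp kit per the labels' protocols, was hybridised to 1-colour Illumina bead arrays. The deposited file holds the intensity of each probe on each array, called non-normalized, with a detection p-value, per the file headers; the software that exported it is not given in the sources used here. A second deposited table holds log2 values of 7016 of the probes, each column with a median of 7.01; it equalled the quantile-normalized log2 intensities of those probes within 0.0002, and the labels of control arrays 1 and 2 are exchanged between the 2 files. Which file has them right is not settled here, so array numbers follow the intensity file; group means are unchanged. Detected probes per array set the precision, with 7059 to 13867 of 45281.

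To select the members, 16 was added to each intensity, all 14 arrays were quantile-normalized and log2 was taken, and the rule was applied as stated. For all other values, intensities were background-corrected by normexp (offset 16), with the negative controls' distribution worked back from the detection p-values, quantile-normalized and log2-transformed. Probes with detection p under 0.05 on at least 3 arrays (14916, 32.9%) were fitted with limma 3.58.1 in R 4.3.3 (lmFit and eBayes, 3 groups in 1 fit, two-sided, Benjamini-Hochberg over all tested probes). Calls are at an adjusted p under 0.05. The scripts were tested on simulated data. Gene names come from the platform annotation of the second table (6083 probes with 1 gene, 3 with several, 930 without), updated through gene IDs to RefSeq; a probe outside that table is unnamed here.

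The members and the gene lists were chosen with earlier results of these data known. Genes were named by a rule: among members with 1 gene, the 10 with the largest fall, up to 4 of each of 42 gene lists, the 5 highest and 5 lowest day 4 calls, the 3 probes on each side of the fold, and genes with several member probes; others were chosen after their values were seen and are there to describe their group. Alternatives changed the background correction, normalization, filter, arrays, weights, threshold and rule.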

Additional observations from a re-analysis of the deposited data

Results flagged for a closer look

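An array stood apart from the rest of its group, by Dixon's test at the 95% level, in 8 of 122 groups of values tested, where chance gives about 1 in 20. At day 14, array 2 was high for the median of the cornified layer group, at 7.73 against 6.95 to 7.12 on the other 4 arrays, and for Krt15, at 7.03 against 5.81 to 5.94. Day 14 array 5 was low for Tenm4 probe ILMN_3162820, at 4.81 against 5.36 to 5.54, and for Timp3, at 6.33 against 7.45 to 7.83. At day 4, array 3 was high for Fa2h, at 10.07 against 8.98 to 9.24, for Ccnd2 probe ILMN_2700166, at 8.94 against 7.24 to 7.85, and for Abcd3, at 8.86 against 7.90 to 8.19. Day 4 array 6 was low for Bcl11b probe ILMN_2611022, at 6.66 against 7.56 to 7.87.

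The difference from control was not the same at the 2 times for 115 of 115 members, by the limma comparison of day 14 with day 4; the rule fixed that count.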

How the results depend on the processing

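The number of probes that met the rule was 205 with a fold of 0.4, 63 with 0.8, 81 with an offset of 50 and 3 with median scaling, and 101 to 149 without each array in turn. With 75th percentile scaling it was 97, of which 90 were members. Members called between day 4 and control, 11 by the main settings, were 0 under median scaling, 1 under 75th percentile scaling, 4 at a limma adjusted p under 0.01, 3 without the filter for dim probes, 17 with array weights and 0 to 13 without each array in turn, with 0 without control array 1 and 7 without day 4 array 1 or 4. The 75th percentile scaling was chosen after seeing the data. Members called between day 14 and control, 114 by the main settings, were 1 under median scaling and 98 to 115 without each array in turn. They were 105 under 75th percentile scaling and 115 under cyclic loess. Between day 14 and day 4 they were 28 under median scaling and 115 without each array in turn, under 75th percentile scaling and under cyclic loess. The rule chose the members by these differences, so the day 14 counts are a description. Calls over all tested probes fell under median scaling too. They went from 4.75% to 1.25% between day 4 and control, from 12.1% to 1.36% between day 14 and control and from 17.1% to 4.46% between day 14 and day 4. Same-numbered arrays correlated by -0.30 to 0.25 in their deviations from the group means, with 4 of 11 pairs over 0.1. Differently numbered arrays correlated by -0.48 to 0.45, with 16 of 52 pairs over 0.1. So few arrays cannot decide whether the replicate numbers pair the samples. With the replicate number as a replicate block, 15 members were called between day 4 and control, 108 between day 14 and control and 115 between day 14 and day 4. Among the probes named by the rule, no called value changed sign in the alternatives run on them; Prxl2a, the other probes of member genes and the list probes were not followed one by one. The causes were not tested. Signal over background limits the members that lie near the detection limit at day 14, 20 of which were detected on 4 of the 5 day 14 arrays.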
